A study of Mus musculus with 15 samples.

Results

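Offspring of sedentary dams from matings with a high-fat-fed parent were compared with offspring of chow-fed parents. The comparison takes 9 of the 15 quadriceps libraries of the series by their group labels: 3 with a high-fat-fed mother (MHS), 3 with a high-fat-fed father (PHS) and 3 controls (NCS). Genes were tested where the normalized count (reads divided by a size factor per library) averaged at least 10 over all 15 libraries, which left 13499 genes. The genes described are those that stood on the same side of the controls in both parent arms.

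The animals were C57BL/6 mice and the labels name no altered allele. In the control group both parents ate normal chow and the pregnant dam was housed with a locked running wheel. In the maternal arm the mother ate a 60% high-fat diet for 6 weeks, was mated with a lean male and had a locked wheel in pregnancy. In the paternal arm the father ate that diet for 6 weeks and was mated with a lean female, whose wheel was also locked. All offspring were kept on chow without exercise from the day after birth, and the quadriceps, a thigh muscle, was taken at 10 months of age. The maternal and paternal experiments were run in parallel and share the 3 controls, so a high or low control library moves both arms alike. The other 6 libraries, from the same matings with open wheels in pregnancy, entered the fit for its estimate of the spread, and their means are given for the leading genes. Whether any of the 9 animals were littermates is not stated, and p-values therefore reflect only the spread among these libraries. The meaning of the title codes is not stated. The first part of the code is the same in all 3 sedentary maternal libraries, and 0 of the codes of the maternal groups occur in controls or paternal groups, so that the code and a high-fat-fed mother cannot be told apart. No sedentary paternal library has the code of a control either, but the paternal group with open wheels has libraries with the codes of both. Control replicates 1 and 2 share all of the code but its last number, as do maternal replicates 2 and 3. Paternal replicates 1 and 2 share the first part. Whether libraries with shared parts of the code are related is not stated, so the 3 libraries of a group may not be independent.

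The 9 libraries held 22350676 to 26981745 counted reads. The tissue label fits its markers: Mylpf, the fast skeletal myosin light chain, stood at 158468.7 to 265804.5 normalized counts in the 9 libraries. Reads of 28 listed hepatocyte genes summed to 24.1 to 33.6 CPM (reads scaled to equal library totals) in 5 libraries, but to 225 in control replicate 2, 293 in paternal replicate 1, 567 in maternal replicate 3 and 4538 in maternal replicate 2. Fewer genes had at least 1 read in control replicate 2 (17699) and maternal replicate 3 (17581) than in the other 7 libraries (19194 to 20771). Values without those 4 or those 2 libraries are given where they change a group's picture. In whole muscle, fewer cells of a type and less RNA per cell cannot be told apart.

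The 6 genes with the smallest p-values, and 9 of the first 20, are in lists of the interferon response. Interferon-gamma, secreted by T and NK cells, signals through JAK kinases and induces IRF1, the guanylate-binding proteins and immunity-related GTPases that attack intracellular microbes, and the genes that load peptides on MHC class I. Type I interferons signal through the receptor chains IFNAR1 and IFNAR2 and induce antiviral effectors, and many genes answer to both. Muscle fibres carry little MHC class I at rest and can be induced to display more, together with PD-L1, the ligand of an inhibitory receptor on T cells.

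No gene passed a Benjamini-Hochberg adjusted p of 0.05 in limma over the 13499 genes (0 called, 0%), where the lowest adjusted p was 0.44. At an unadjusted p under 0.05 limma gave 422 genes (3.13% of those tested), of which 265 (1.96%) were higher and 157 (1.16%) lower in the high-fat-parent libraries. On the whole reads recovered from the deposited values, edgeR called 0 genes after adjustment (lowest adjusted p 0.952, 482 genes or 3.57% unadjusted) and limma voom 0 (0.966, 429 genes or 3.18%). DESeq2, run on the same reads as an alternative, called 6 genes higher (0.0444%) and 0 lower, with 480 (3.56%) at an unadjusted p under 0.05. Where no gene differs, a share of 0.05 of genes falls under this threshold, so all 4 tests gave fewer unadjusted genes than that. The 6 called by DESeq2 were Gbp4, Cd274, Gbp2, Iigp1, Nlrc5 and Tap1, with DESeq2 adjusted p-values of 0.000776, 0.000934, 0.00919, 0.00919, 0.0132 and 0.0398, and they were also the 6 genes of smallest p in limma.

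In a fit of the control and paternal libraries blocked on the leading title code, which was chosen after seeing the data, 0 genes passed in limma for the paternal arm (lowest adjusted p 0.891, 552 unadjusted). Since no sedentary paternal library shares a code with a control, this fit reaches the difference only through the paternal libraries with open wheels. It adds sedentary minus open-wheel values within a code to open-wheel minus control values within others. Paternal replicate 3 shares its code with no other library and does not enter the difference. The indirect differences of Cd274, Gbp4 and Gbp2 from controls were 1.37 ± 0.44, 1.41 ± 0.31 and 1.38 ± 0.60 (log2, SE). The direct ones, without the block and with all sedentary paternal libraries, were 1.41, 1.22 and 1.21. Iigp1, Nlrc5 and Tap1 gave 2.17 ± 0.57, 0.56 ± 0.55 and 0.82 ± 0.53, against 1.31, 0.73 and 0.88. Of the guanylate-binding proteins 7 of 8 were higher (median 0.99), and of the MHC class I presentation genes 17 of 22 (0.25). Such a fit cannot be made for the maternal arm.

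In both arms alike, 4168 genes (30.9%) had higher and 3624 genes (26.8%) lower means than the controls they share, 57.7% in all. The pooled mean was higher for 52.5% and lower for 47.5% of genes. An unadjusted limma p under 0.05 in each arm separately was reached by 46 genes on the higher side (0.341% of all tested) and 26 on the lower side (0.193%). After Benjamini-Hochberg adjustment of the larger p of both arms, 0 genes passed in limma and the lowest adjusted p was 1. Of the 46 higher genes, 9 (19.6%) are in the interferon lists, and they are 10.1% of the 89 interferon genes tested, while interferon genes make up 0.659% of all genes tested. These were Cd274, Gbp2, Gbp4, Iigp1, Tap1, Nlrc5, Tgtp1, Ifi47 and Irf1. Of the 26 lower genes 1, Ifit3b, is an interferon gene. These shares describe the libraries and carry no test, since the lists were drawn up with earlier results of the same data known.

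**Figure D1:**
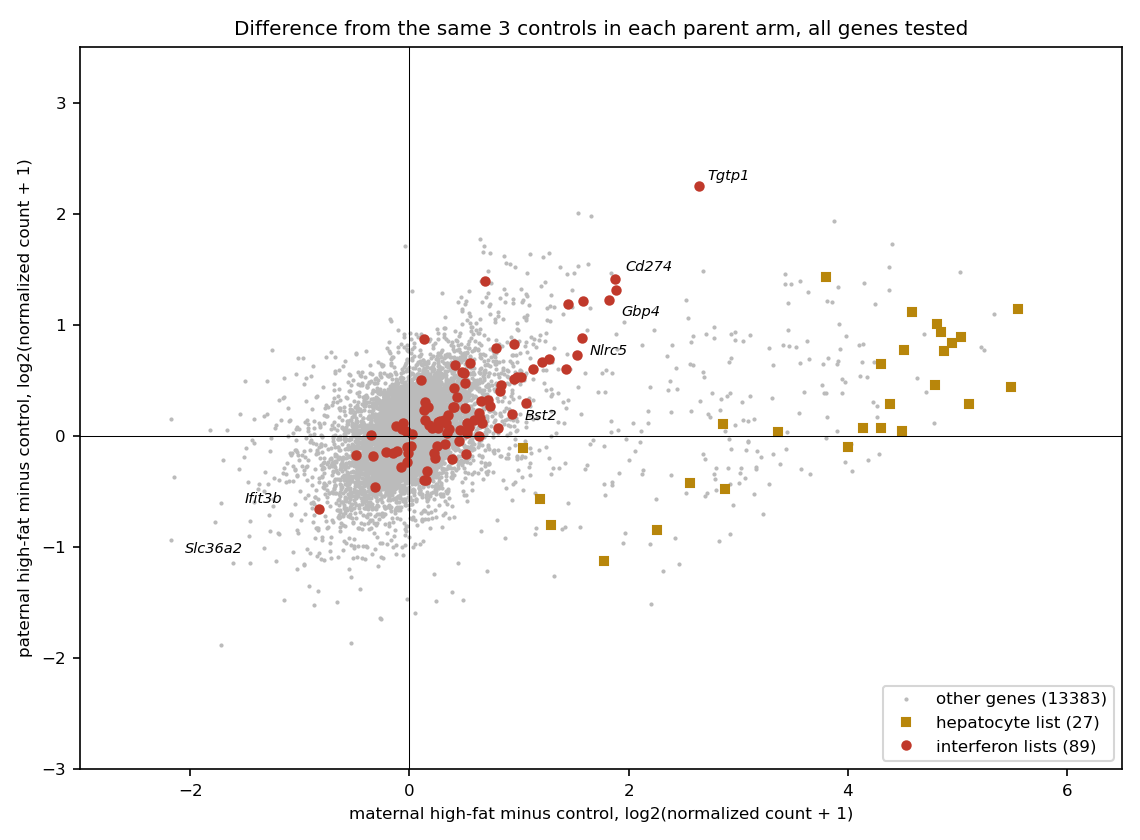
Each point is 1 of the 13499 genes tested, with its mean log2(normalized count + 1) in the maternal (x axis) and the paternal arm (y axis) minus the mean of the same 3 controls. Interferon genes (89, red) extend to the upper right, led by Tgtp1 and Cd274, while the 27 hepatocyte genes tested (yellow squares) lie far to the right, with a median of 4.31 in the maternal arm against 0.29 in the paternal.

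The promoters of some of these genes hold motifs of the interferon pathway, and 4 are shown because they differ in this respect. The interferon-stimulated response element core was searched as GAAA, any 2 bases and GAAA, and the gamma-activated site as TTCNNNGAA, on both strands, in the 250 bases before to 50 bases after the start (RefSeq, GRCm38.p6). Capitals mark the matches. Gbp2 (chr3:142620413-142620712, plus strand) holds 1 response element core, which begins 59 bases before the start. Gbp3 (chr3:142559794-142560093, plus strand) holds 2 overlapping cores, while the promoter of its other start (chr3:142560106-142560405) holds neither motif. Bst2 (chr8:71537423-71537722, minus strand) holds 2 overlapping cores, the first of which also overlaps 1 gamma-activated site. Cd274 (chr19:29367188-29367487, plus strand) holds neither motif in this window.
Gbp2: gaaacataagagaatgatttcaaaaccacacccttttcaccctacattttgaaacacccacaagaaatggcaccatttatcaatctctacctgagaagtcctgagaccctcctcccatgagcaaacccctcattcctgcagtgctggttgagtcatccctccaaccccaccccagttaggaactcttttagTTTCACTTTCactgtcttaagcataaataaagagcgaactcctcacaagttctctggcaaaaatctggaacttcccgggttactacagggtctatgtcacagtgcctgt
Gbp3: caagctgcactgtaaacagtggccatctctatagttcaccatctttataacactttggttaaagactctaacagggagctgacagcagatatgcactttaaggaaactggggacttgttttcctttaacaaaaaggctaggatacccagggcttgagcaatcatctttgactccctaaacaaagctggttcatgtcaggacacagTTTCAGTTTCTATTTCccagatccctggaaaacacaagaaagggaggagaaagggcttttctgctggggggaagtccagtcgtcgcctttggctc
Bst2: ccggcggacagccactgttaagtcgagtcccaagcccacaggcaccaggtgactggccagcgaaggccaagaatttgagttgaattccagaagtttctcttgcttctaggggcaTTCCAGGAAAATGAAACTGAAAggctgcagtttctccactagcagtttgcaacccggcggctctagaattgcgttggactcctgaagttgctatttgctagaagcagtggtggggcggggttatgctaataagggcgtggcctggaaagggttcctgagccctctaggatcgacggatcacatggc
Cd274: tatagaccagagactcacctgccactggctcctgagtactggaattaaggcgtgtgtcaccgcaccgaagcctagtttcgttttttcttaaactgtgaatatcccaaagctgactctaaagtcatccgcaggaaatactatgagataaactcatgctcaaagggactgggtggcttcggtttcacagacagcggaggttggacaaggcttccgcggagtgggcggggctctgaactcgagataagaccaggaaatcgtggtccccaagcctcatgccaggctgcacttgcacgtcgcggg

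Over all 27025 genes with a promoter in that table, 3.99% held the response element core and 9.55% the gamma-activated site, and 3.49% and 8.05% of the 10129 tested genes that matched. The core was found in 4 of 4 matched guanylate-binding protein genes (8 tested), in 5 of 6 immunity-related GTPase genes and in 9 of 21 type I interferon effectors. It was found in 5 of 18 MHC class I presentation genes and in 2 of 13 interferon-gamma signalling genes. The gamma-activated site was found in 2 of the 4 guanylate-binding protein promoters, in 4 of 6 of the immunity-related GTPases and in 1 of 18 of the class I genes. Of the 6 genes of smallest p, 3 had a promoter in the table (Cd274, Gbp2 and Tap1), of which 1 held the core and 0 the gamma-activated site. A match describes the letters only and is no evidence of binding.

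Cd274, which encodes PD-L1 (ENSMUSG00000016496.7, chromosome 19, 29367455 to 29388095, GRCm38), had the smallest p of all genes. Its normalized counts were 33.5, 27.3 and 48.1 in the controls, 241.3, 127.5 and 74.6 in the maternal and 93.6, 110.7 and 83.7 in the paternal libraries. All 6 high-fat-parent libraries lay above all 3 controls, and maternal replicate 1 lay far above the rest. The mean was 122 ± 61.5 (SD, n = 6) against 36.3 ± 10.7 (n = 3), a 3.36-fold ratio, and the pooled log2 difference in limma was 1.64 ± 0.30 (SE, limma adjusted p = 0.44, unadjusted 5.63e-05). The arms gave 1.87 and 1.41. With open wheels in pregnancy the means were 68.7 ± 18.6 in the maternal and 82.0 ± 4.13 in the paternal group (n = 3 each).

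Gbp4 (chromosome 5, 105115767 to 105139586), a large GTPase of the family that attacks vacuoles around microbes, stood at 87.4, 99.0 and 128.2 in the controls. It stood at 635.3, 323.5 and 243.1 in the maternal and at 305.6, 256.9 and 183.1 in the paternal libraries, again with no overlap. Its pooled log2 difference in limma was 1.52 ± 0.28 (SE, limma adjusted p = 0.44, unadjusted 6.51e-05), with 1.82 in the maternal and 1.22 in the paternal arm. Gbp2 (chromosome 3, 142620602 to 142638008) stood at 63.0, 30.3 and 84.6 in the controls, 240.3, 159.1 and 117.8 in the maternal and 133.7, 139.0 and 112.2 in the paternal libraries. The lowest of the 6, paternal replicate 3, was above the highest control. The pooled difference was 1.40 ± 0.27 (limma adjusted p = 0.53, unadjusted 0.000127).

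Iigp1, an immunity-related GTPase on chromosome 18, stood at 43.7, 39.4 and 80.1 in the controls and between 103.4 and 276.7 in the 6 high-fat-parent libraries (median 147), a log2 difference of 1.60 ± 0.34 (limma adjusted p = 0.683, unadjusted 0.000253). Tap1 (chromosome 17, 34187553 to 34197225), a subunit of the transporter that brings peptides to MHC class I, stood at 94.5, 43.4 and 102.4 in the controls, 298.1, 198.6 and 193.4 in the maternal and 131.9, 125.2 and 162.4 in the paternal libraries. Neither gene had overlapping groups, and for Tap1 every maternal library lay above every paternal one. Nlrc5 (chromosome 8, 94434356 to 94527272), the transactivator of MHC class I genes, stood at 43.7, 75.8 and 53.4 in the controls, 207.7, 138.9 and 152.4 in the maternal and 66.8, 113.9 and 107.3 in the paternal libraries. Here paternal replicate 1 lay inside the control range, and the pooled difference was 1.13 ± 0.23 (limma adjusted p = 0.53, unadjusted 0.000157).

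**Figure D2:**
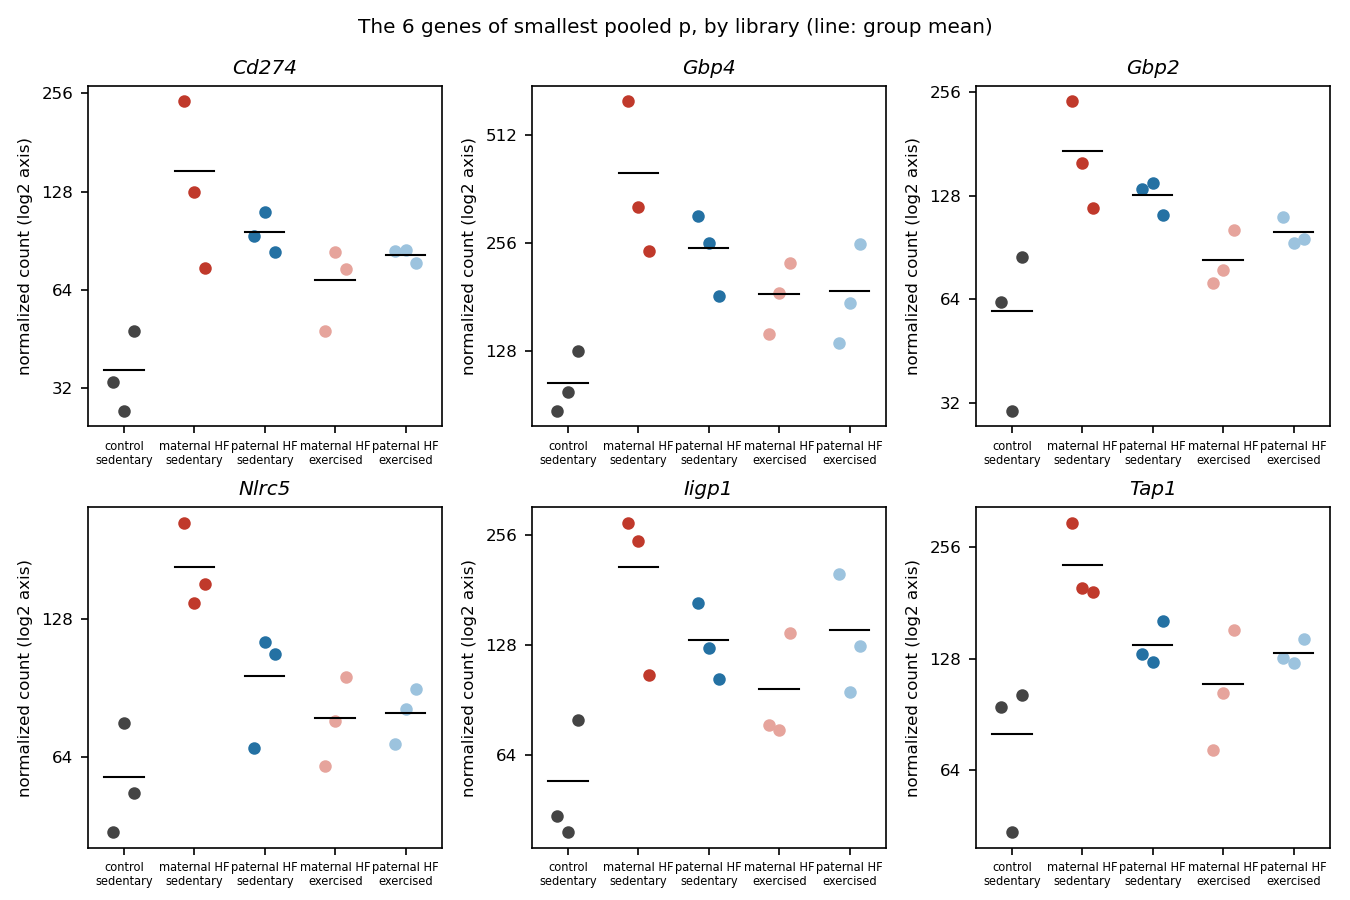
Normalized counts (log2 axis) of the 6 genes of smallest pooled p in each of the 15 libraries, 3 per group (HF, high-fat parent; the exercised groups had open wheels in pregnancy); points are libraries and lines group means. For Cd274, Gbp4, Gbp2, Iigp1 and Tap1 all 6 sedentary high-fat-parent libraries lie above the 3 controls, and for Nlrc5 paternal replicate 1 (66.8) lies below the highest control (75.8).

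The guanylate-binding proteins stood higher as a family. All 8 members tested had higher means in both arms, with a median log2 difference of 0.98 (1.12 maternal, 0.77 paternal) against 0.01 over all genes tested. An unadjusted limma p under 0.05 was reached by 6 of 8 on the higher side and 0 on the lower, where 1.96% of all genes were on the higher side. In 3 of the 8 (Gbp2, Gbp3 and Gbp4) the 6 libraries lay above all 3 controls, as for 114 of all genes (0.845%). By arrangement alone, 1 of the 84 ways to pick 6 of 9 libraries puts all 6 on top, a larger share than 0.845%. Summed over the 10 listed members, the family made up 20.2, 19.3 and 37.0 CPM in the controls, 84.9, 51.6 and 34.3 in the maternal and 55.8, 51.2 and 35.2 in the paternal libraries. The sums thus overlap, since control replicate 3 exceeded maternal replicate 3 and paternal replicate 3. Gbp3 stood at 41.7, 42.4 and 71.2 in the controls, 204.0, 133.6 and 92.9 in the maternal and 76.6, 76.8 and 76.8 in the paternal libraries (log2 1.01 ± 0.25). Gbp7, Gbp5 and Gbp9 gave 0.78, 0.94 and 0.53, and Gbp6 and Gbp10, which did not reach an unadjusted p of 0.05, gave 1.04 ± 0.55 and 0.50 ± 0.31. Without the 4 libraries rich in hepatocyte transcripts all 8 were still higher, with a median of 1.06 and 5 at that p. The number at that p was 3 without control replicate 2 and 4 without maternal replicate 1, with medians of 0.79 and 0.80.

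Among the immunity-related GTPases, 7 of 8 members tested were higher in both arms and 1 lower, with a median of 0.74. Of all genes 30.9% were higher in both arms. On the higher side 5 reached an unadjusted limma p under 0.05, where 1.96% of all genes did. Without the 4 libraries rich in hepatocyte transcripts 4 did (median 0.78). Ifi47 stood at 9.1, 6.1 and 19.6 in the controls and at 19.7 to 42.9 in the 6 high-fat-parent libraries (median 27.0), so that the lowest of the 6 was barely above the highest control (log2 1.31 ± 0.37). Tgtp2 stood at 15.2, 13.1 and 19.6 against 19.7 to 71.7 (median 30.1), a log2 difference of 0.99 ± 0.32. Tgtp1 stood at 3.0, 0.0 and 12.5 in the controls, 34.5, 30.8 and 10.8 in the maternal and 31.2, 12.1 and 12.8 in the paternal libraries. Its difference of 2.45 ± 0.70 rests on low counts and depends on the pseudocount, and the groups overlap. Igtp, at 207.3, 217.2 and 238.5 in the controls and 190.7 to 344.7 in the 6, gave 0.19 ± 0.25. Gbp genes, Tgtp1 and Tgtp2, the H2-Q genes and Ifit3 and Ifit3b have close copies, and the treatment of reads shared by copies is not stated, so their single values are uncertain. Whether the counting used strand is not stated either.

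MHC class I presentation genes were higher on average, by less. Of 22 tested, 20 had higher pooled means, 16 in both arms (median 0.35, or 0.60 in the maternal and 0.19 in the paternal arm). On the higher side 10 reached an unadjusted limma p under 0.05, and 0 on the lower. Over all genes tested, 52.5% had higher pooled means, 30.9% higher means in both arms, and 1.96% reached that p on the higher side. B2m, the light chain of class I molecules, stood at 820.0, 748.5 and 1052.0 in the controls, 1288.3, 1615.6 and 1213.5 in the maternal and 1097.8, 1070.5 and 1046.4 in the paternal libraries (log2 0.48 ± 0.13). Only paternal replicate 3 fell inside the control range. Psmb9, an immunoproteasome subunit, stood at 45.7, 43.4 and 46.3 in the controls, 114.6, 87.0 and 86.4 in the maternal and 53.5, 50.9 and 63.0 in the paternal libraries (0.68 ± 0.23). The groups did not overlap, and the maternal libraries stood highest. The heavy chain H2-K1 differed from controls by 0.63 in the maternal arm and by -0.00 in the paternal arm. Psme1 and Psme2, the proteasome activator subunits, were the 2 members with lower pooled means (-0.15 and -0.08). Without the 4 libraries rich in hepatocyte transcripts 18 of 22 were higher, with a median of 0.37 and 12 at that p. Without control replicate 1 the number at that p was 5 (median 0.29).

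The interferon-gamma signalling list holds the ligand's receptors and kinases beside some of its targets. Of 15 tested, 12 had higher means, against 52.5% of all genes (median 0.20). On the higher side 3 (Cd274, Irf1 and Irf9) reached an unadjusted limma p under 0.05, against 1.96% of all genes. Without the 4 libraries rich in hepatocyte transcripts 2 did (median 0.26), as without control replicate 1, control replicate 2, paternal replicate 2 or paternal replicate 3, and 5 did without maternal replicate 3 or paternal replicate 1. Irf1, the transcription factor that acts on many of these genes, stood at 184.9, 103.0 and 151.3 in the controls, 296.2, 274.2 and 203.1 in the maternal and 159.5, 205.2 and 227.4 in the paternal libraries (0.64 ± 0.18). Paternal replicate 1 was the one library of the 6 inside the control range. The receptor chains Ifngr1 and Ifngr2 gave 0.14 and -0.18, and the kinases Jak1 and Jak2 0.00 and -0.00. Ifng itself had 0 reads in all 9 libraries, which allows up to 3 reads, or 0.111 to 0.134 CPM. The 20 listed T and NK cell genes summed to 1.59 to 3.49 CPM in the 9 libraries. The sums were 2.00 to 2.98 in the controls and 1.59 to 3.49 in the 6. Most of each sum came from Zap70 (0.85 to 2.49 CPM) and Cd3e (0.09 to 1.08). Cd8a was at 0 in 5 of 9 libraries and Klrd1 in 6 of 9.

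Type I interferon effectors were mixed. Of 29 tested, 19 had higher (against 52.5% of all genes) and 10 lower pooled means (median 0.18). At an unadjusted limma p under 0.05, 3 were higher and 1 lower, against 1.96% and 1.16% of all genes. The median was 0.05 without the 4 libraries rich in hepatocyte transcripts, with 1 higher at that p, 0.05 without control replicate 2 and 0.11 without the 2 libraries of few genes. Without control replicate 3 it was 0.31, with 8 higher at that p. Rsad2, which encodes the antiviral enzyme viperin, stood at 84.3, 70.7 and 126.4 in the controls and at 102.4 to 191.0 in the 6 (median 158), with paternal replicate 3 inside the control range (0.73 ± 0.22). Ifih1, an RNA sensor, stood at 37.6, 40.4 and 80.1 in the controls and at 64.0 to 80.2 in the 6, so control replicate 3 was as high as the highest of them (0.53 ± 0.22). Ifit3b stood at 99.6, 69.7 and 78.3 in the controls and at 35.7 to 54.5 in the 6 (median 50.3), each of them below all controls (-0.74 ± 0.24). Isg15, a ubiquitin-like modifier, gave -0.08 ± 0.37. Ifnar2, a chain of the type I receptor, stood at 67.1, 58.6 and 65.0 in the controls, 88.5, 127.5 and 122.1 in the maternal and 81.1, 88.9 and 72.8 in the paternal libraries (0.57 ± 0.15, limma adjusted p = 1, unadjusted 0.0021). For Ifnar2 the groups did not overlap. MHC class II presentation genes gave 5 higher and 2 lower of 7 tested, 0 of them at an unadjusted limma p under 0.05. The 10 macrophage markers tested gave 7 higher and 3 lower, 0 at that p (median 0.22, or 0.02 without the 4 libraries and 0.08 without maternal replicate 2), and summed CPM over the 16 listed macrophage genes was 25.7 to 29.5 in the controls and 24.7 to 39.0 in the paternal libraries, and reached 62.9 in maternal replicate 2. Whether macrophage content has a part in the interferon values was not tested.

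Several interferon genes had larger differences in the maternal arm, though none passed a test of the arms. Direct comparison of the maternal with the paternal arm gave 587 genes at an unadjusted limma p under 0.05 (4.35% of those tested) and 0 after adjustment (lowest adjusted p 0.723). This too is below the share of 0.05 that the threshold gives where no gene differs. Bst2, the membrane protein tetherin that holds budding virus on the cell (chromosome 8, 71534255 to 71537456), stood at 81.3, 98.0 and 97.9 in the controls, 169.5, 191.6 and 171.8 in the maternal and 99.8, 105.8 and 112.2 in the paternal libraries. All 6 lay above the controls, but the paternal libraries by little, with log2 differences of 0.94 ± 0.16 and 0.20 ± 0.16. The difference between the arms was 0.74 ± 0.16 (limma unadjusted p = 0.000327, adjusted 0.723). It was 0.64 ± 0.14 for H2-K1, 0.80 ± 0.26 for Nlrc5 and 0.82 ± 0.29 for Gbp3, and 0.46 ± 0.34 for Cd274, all with the same adjusted p. Of all 89 interferon genes tested, 67 had higher means in the maternal than in the paternal arm, 15 of them at an unadjusted limma p under 0.05 and 0 the other way. Over all genes that p was reached by 4.35% in both directions together, and the share of each direction is not given here. The interferon genes share the maternal libraries, which also share their title code. The median of the interferon genes against controls was 0.31 pooled, 0.41 in the maternal and 0.15 in the paternal arm. Over all genes tested it was 0.01, 0.014 and 0.006.

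**Figure D3:**
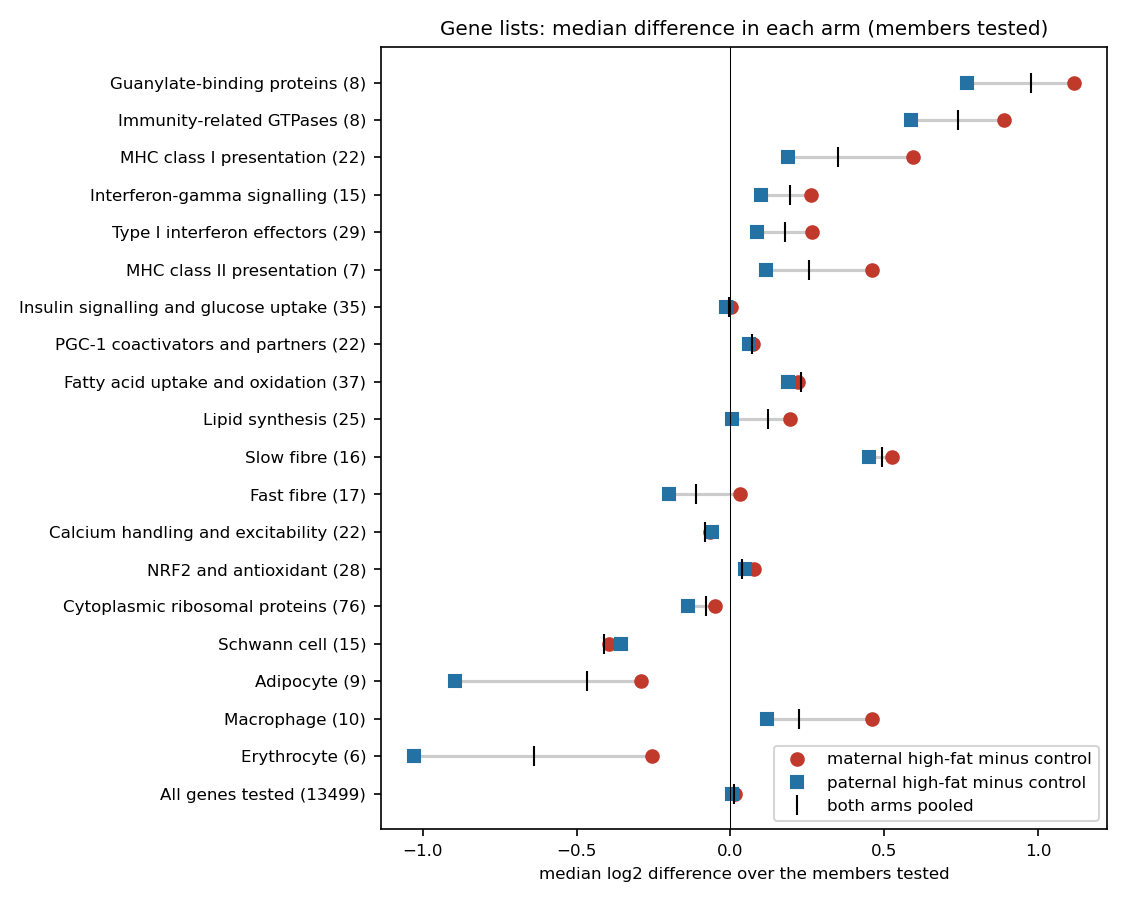
Median log2 difference from controls over the tested members of 19 gene lists (number tested in brackets) and over all genes: circles give the maternal arm, squares the paternal arm and bars both pooled. Among the 19 lists shown, of 42 in all, the guanylate-binding proteins (0.98) and immunity-related GTPases (0.74) lie farthest to the right. The Schwann cell (-0.41), adipocyte (-0.47) and erythrocyte (-0.64) lists lie to the left. The hepatocyte list, with a pooled median of 2.335, is not shown.

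Outside the interferon lists, Irs1, the insulin receptor substrate that links the receptor to PI3-kinase (chromosome 1, 82233101 to 82291416), was among the leading higher genes. It stood at 561.9, 664.6 and 503.8 in the controls, 1009.8, 1109.3 and 1535.5 in the maternal and 1013.1, 756.2 and 804.3 in the paternal libraries. The groups did not overlap, and the pooled log2 difference was 0.82 ± 0.22 (limma adjusted p = 1, unadjusted 0.00237). With open wheels its means were 1072 ± 458 and 951 ± 92.2. The insulin signalling and glucose uptake list, Irs1 included, was balanced, with 17 of 35 members higher and 18 lower, a median of -0.01, and Irs1 and Trib3 alone at an unadjusted p under 0.05. Irs2, Akt2 and Hk2 gave -0.26, 0.08 and -0.20, and Slc2a4, the insulin-responsive glucose transporter, -0.09 ± 0.14.

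Other genes with 6 libraries above the 3 controls included Optn, Wrnip1 and Zfp366. Optn, the autophagy receptor optineurin, stood at 1310.7, 1338.3 and 1462.3 in the controls, 1575.3, 1534.7 and 1546.3 in the maternal and 1897.0, 1966.5 and 1699.1 in the paternal libraries (0.31 ± 0.08). In contrast to Bst2 the paternal libraries were the higher ones, with an unadjusted limma p of 0.0168 for the arms. Wrnip1, an ATPase of replication stress, ranged from 146.3 to 248.7 against 87.9 to 142.4 in the controls (0.72 ± 0.20). Over 22 alternatives its difference never turned sign and was 0.38 at its smallest. Zfp366, a zinc finger gene, had a narrow range of 141.5 to 161.3 in the 6 libraries against 94.5, 116.2 and 95.2 in the controls (0.57 ± 0.16). Wrnip1 and Zfp366 were among the 46 genes under 0.05 in each arm, while Optn was not (unadjusted limma p 0.0744 in the maternal arm). Ahr, the aryl hydrocarbon receptor, Nuak1, an AMPK-related kinase, Tead2, a partner of YAP, and the cAMP phosphodiesterases Pde4b and Pde4d were also among the 46, at 0.74, 0.61, 0.53, 0.47 and 0.32. Of these, Pde4b overlapped the controls. Kcnma1, the large-conductance calcium-activated potassium channel, stood at 793.6, 658.6 and 789.5 in the controls and at 889.5 to 1177.1 in the 6 (0.39 ± 0.12). It was the single member of 22 calcium handling and excitability genes at an unadjusted limma p under 0.05, while 14 of the 22 had lower means (median -0.08, or 0.02 without control replicate 1).

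Fewer genes stood lower in both arms at an unadjusted p under 0.05, 26 against 46. Dusp14, a phosphatase of MAP kinases (chromosome 11, 84048041 to 84069261), stood at 124.0, 153.5 and 74.8 in the controls, 69.9, 53.6 and 61.6 in the maternal and 51.7, 60.6 and 66.0 in the paternal libraries. All 6 lay below the controls, though control replicate 3 exceeded maternal replicate 1 by little. The mean was 60.6 ± 6.98 (SD, n = 6) against 117 ± 39.8 (n = 3) and the log2 difference -0.89 ± 0.21 (limma adjusted p = 1, unadjusted 0.000814). Its means with open wheels, 58.6 ± 11.8 and 57.4 ± 5.33, were like those of the sedentary arms. Slc36a2, a proton-coupled amino acid transporter (chromosome 11, 55158470 to 55185077), stood at 68.1, 122.2 and 73.9 in the controls, 26.1, 40.4 and 46.5 in the maternal and 35.6, 46.1 and 58.1 in the paternal libraries. Again the groups did not overlap, and the difference was -1.04 ± 0.25 (limma adjusted p = 1, unadjusted 0.000823). Over 22 alternatives Dusp14 ranged from -1.18 to -0.53, the smallest difference being that without the 4 libraries rich in hepatocyte transcripts. Slc36a2 ranged from -1.20 to -0.78, the latter without control replicate 2.

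Ano6, the phospholipid scramblase TMEM16F that takes part in cell fusion and membrane repair, stood at 1077.0, 1013.1 and 1006.6 in the controls, 784.4, 783.2 and 796.4 in the maternal and 916.0, 943.7 and 850.5 in the paternal libraries (-0.29 ± 0.08, limma adjusted p = 1, unadjusted 0.00256). The step is small and the libraries of each arm lie close together. Neu2, the cytosolic sialidase, ranged from 301.2 to 389.0 against 405.9 to 546.4 in the controls (-0.52 ± 0.15). Hira, a chaperone of histone H3.3, ranged from 77.8 to 92.5 against 105.7 to 140.4 (-0.44 ± 0.14). Abcc1, an export pump for glutathione conjugates, ranged from 1001.5 to 1308.3 against 1347.3 to 1488.8 (-0.31 ± 0.10). Sh3rf2, Sel1l3, Stk35, Lsmem1, Ccdc9b and Slc10a7 completed the 12 lower genes named by rule, with differences of -0.61 to -0.35 and no overlap with the controls, as for 121 of all genes (0.896%). The rule itself asked for no overlap, and 1 of the 84 ways to pick 6 of 9 libraries gives it in this direction, a larger share than 0.896%. Sh3rf2, Hira, Ccdc9b and Abcc1 never turned sign over 22 alternatives, but shrank to -0.25, -0.27, -0.23 and -0.17 at their smallest. Stra6, the receptor for retinol-binding protein, had the lowest difference of the 26 genes (-1.80 ± 0.51), at means of 8.34 ± 4.58 and 7.65 ± 5.98 in the arms against 29.1 ± 14.7 (n = 3 each).

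**Figure D4:**
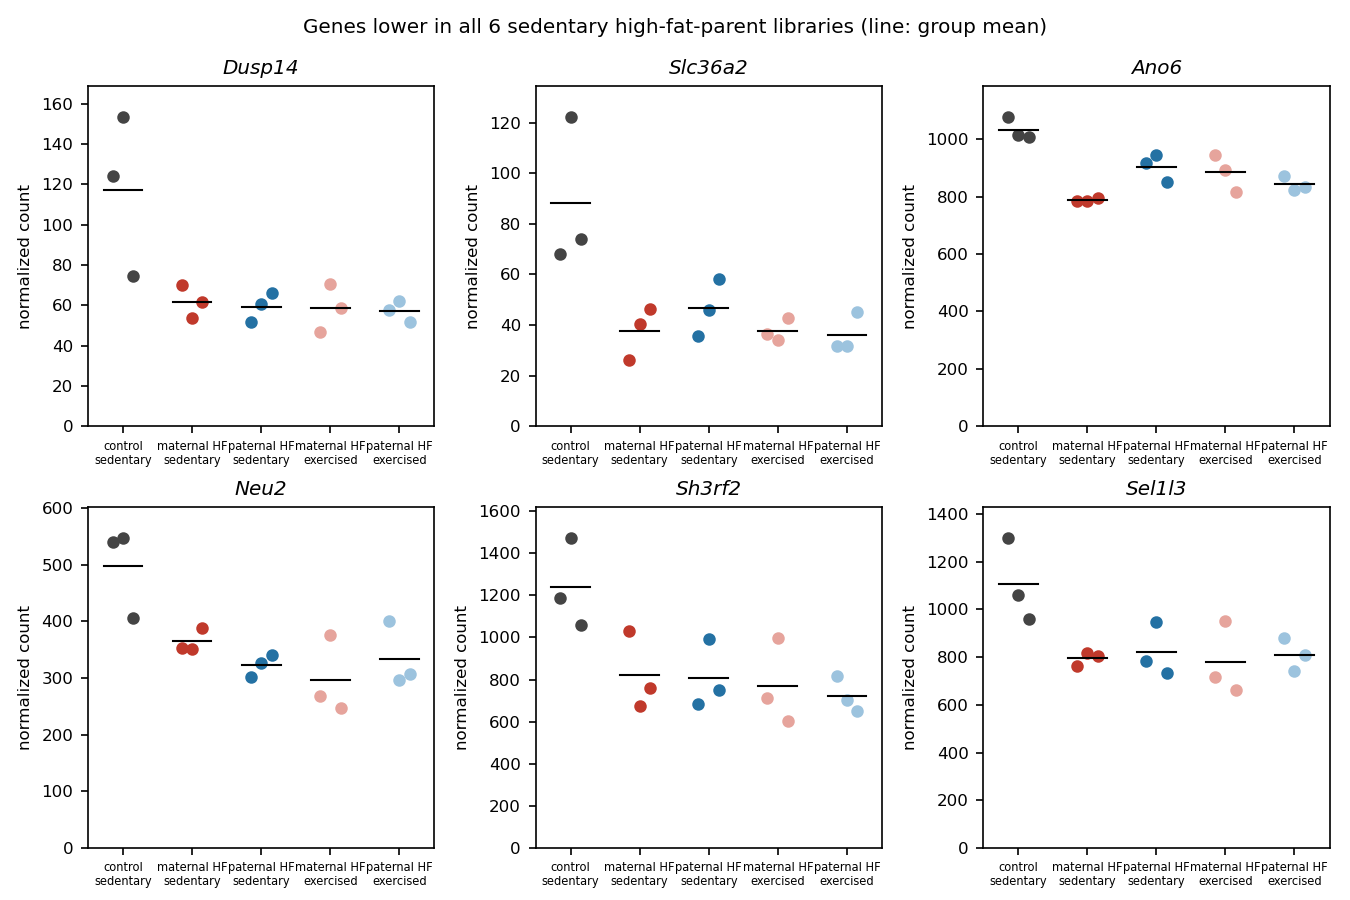
Normalized counts (linear axis from 0) of 6 genes with all 6 sedentary high-fat-parent libraries below the 3 controls, in each of the 15 libraries (HF, high-fat parent; points are libraries, lines group means). Dusp14 and Slc36a2 differ most (log2 -0.89 and -1.04), and Ano6 shows a small step with the 3 maternal libraries between 783.2 and 796.4.

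Genes of fatty acid uptake and oxidation were higher on average. Of 37 tested, 34 had higher pooled means, 28 in both arms (median 0.23). On the higher side 6 reached an unadjusted limma p under 0.05, and 0 on the lower. Over all genes tested, 52.5% had higher pooled means, 30.9% higher means in both arms, and 1.96% reached that p on the higher side. Acot2, a mitochondrial acyl-CoA thioesterase, stood at 1258.9, 1340.4 and 1974.1 in the controls, 2505.0, 2539.4 and 2576.1 in the maternal and 3141.8, 2036.8 and 2557.5 in the paternal libraries (0.77 ± 0.26), with no overlap. It has a close copy in Acot1 (0.93 ± 0.41). Plin5, a lipid droplet protein of oxidative tissue, ranged from 1866.3 to 2612.1 against 1204.1, 1996.9 and 1560.2 in the controls (0.42 ± 0.16). The fatty acid binding protein gene Fabp3 stood at 2170.3 in control replicate 1 but at 4754.4 and 4517.8 in the others, inside the range of the 6 libraries (4140.5 to 6166.9, 0.56 ± 0.24). Without control replicate 1 the list's median was 0.15 and 0 members reached that p. Without control replicate 2, control replicate 3 or paternal replicate 3 the number was 10, without maternal replicate 2 it was 3, without paternal replicate 1 it was 2, and with a hepatocyte score as a covariate it was 2.

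The same control library was the lowest for slow fibre genes, and the group's direction turned without it. Of 16 tested, 15 had higher means in both arms (median 0.49), against 30.9% of all genes. An unadjusted limma p under 0.05 was reached by 0 of the 16. At that p there were 3 without the 4 libraries rich in hepatocyte transcripts (median 0.72) and 4 without the 2 libraries of few genes (0.74). Summed over the list, control replicate 1 held 2476 CPM and the other controls 6302 and 8178, against 5552 to 9140 in the 6 high-fat-parent libraries. Myh7, the slow myosin heavy chain, stood at 8831.7, 30628.1 and 38165.9 in the controls and at 24960.0 to 41403.2 in the 6 (0.54 ± 0.54). Without control replicate 1 the list's median was -0.03, with 5 of 16 higher, and Myh7 gave -0.11. Among the regulators of oxidative metabolism, Ppargc1a, which encodes PGC-1α, stood at 619.8, 759.6 and 373.8 in the controls and at 391.8 to 787.7 in the 6 (0.17 ± 0.30). Pparg stood at 39.6, 46.5 and 59.6 against 68.6 to 100.5 (0.70 ± 0.26), with no overlap, and was the 1 member of 22 PGC-1 coactivators and partners at an unadjusted limma p under 0.05. The mitochondrial enzyme genes Cs and Pdk4 gave -0.06 ± 0.08 and 0.20 ± 0.19, and the DNA methyltransferase gene Dnmt3b -0.21 ± 0.35. Nuclear genes of respiratory complex I were split, 17 higher and 19 lower of 36, as were those of complexes II to V, 25 and 17 of 42.

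Lipid synthesis genes differed in direction. Of 25 tested, 16 had higher and 9 lower means (median 0.12). The median turned to -0.01 without the 4 libraries rich in hepatocyte transcripts, with 11 higher and 14 lower, with a hepatocyte score as a covariate it was 0.04, without maternal replicate 2 it was 0.02 and without control replicate 1 it was 0.07. The desaturase gene Scd2 stood at 405.4, 614.1 and 469.9 in the controls, 327.0, 418.4 and 316.6 in the maternal and 321.7, 426.6 and 301.2 in the paternal libraries (-0.49 ± 0.16), with 2 of the 6 inside the control range. Lpin1, a phosphatidate phosphatase, ranged from 13438.2 to 22007.1 against 12869.2 to 13687.9 in the controls (0.38 ± 0.15). Its values were highest in the maternal arm and overlapped the controls only at paternal replicate 2. Insig1, a brake on sterol synthesis, gave 0.48 ± 0.21.

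Cell type lists differed in direction, and those of Schwann cells, erythrocytes and adipocytes had lower values on average, with sums that overlap the controls. All 27 hepatocyte genes tested were higher (median 2.335, with 4.31 in the maternal and 0.29 in the paternal arm). Of the fibroblast and tenocyte genes 7 of 12 were higher (median 0.06), and of the endothelial genes 11 of 16 were lower (median -0.06). Of 15 Schwann cell genes tested, 14 had lower means, 12 in both arms, and 6 reached an unadjusted limma p under 0.05 on the lower side, where 1.16% of all genes did (median -0.41). Summed CPM was 177, 398 and 280 in the controls, 192, 248 and 187 in the maternal and 161, 239 and 189 in the paternal libraries, so that control replicate 1 lay inside the range of the 6. Pmp22, a myelin protein, stood at 720.4, 1456.5 and 976.4 in the controls and at 568.5 to 880.7 in the 6 (-0.51 ± 0.18). Control replicate 2, which holds the most Schwann cell reads, is also one of the libraries of few detected genes. Without that library and maternal replicate 3, 9 of 15 were lower, with a median of -0.11 and 0 at that p. The count was 10 of 15 lower, 0 at that p, without the 4 libraries rich in hepatocyte transcripts (median -0.13). All 6 erythrocyte genes tested had lower means (median -0.64), 0 of them at an unadjusted limma p under 0.05. Without the 4 libraries rich in hepatocyte transcripts 5 of 6 reached that p (median -1.17), as with a hepatocyte score as a covariate (median -0.95), while without control replicate 3 the median was -0.33. Their summed CPM was 54.0, 80.8 and 129 in the controls and 33.6 to 100.9 in the 6. Of 9 adipocyte genes 7 were lower (median -0.47, 0 at that p), with a median of -0.21 without paternal replicate 1, -0.26 without maternal replicate 1 and -0.84 without control replicate 3. The part of these cell types in the values of other genes was not tested.

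**Figure D5:**
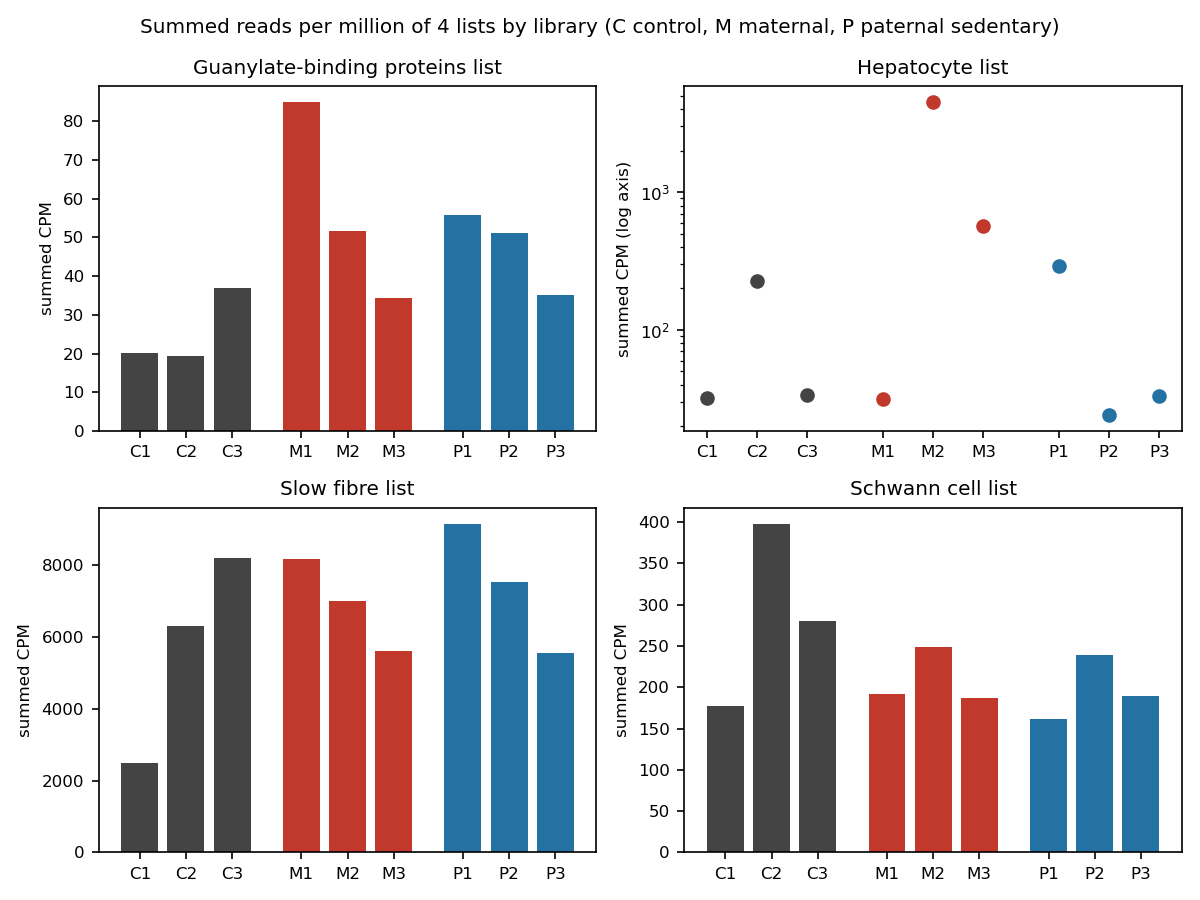
Summed CPM (reads scaled to equal library totals) of 4 gene lists in the 9 libraries, C1 to C3 controls, M1 to M3 maternal and P1 to P3 paternal sedentary; bars start at 0, and the hepatocyte panel shows points on a log axis. The guanylate-binding protein sum is highest in M1 (84.9), where the hepatocyte sum is at 31.8, the hepatocyte sum is highest in M2 (4538), and the slow fibre sum is lowest in C1 (2476).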

How the data were processed

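RNA of quadriceps from 15 mice was sequenced as ribosome-depleted, stranded, 100-bp single-end libraries (per the labels' protocols). Build mm10 is named, per the submitters' processing notes, beside STAR 2.5.2b, featureCounts 1.5.2 and DESeq2 1.11.8. Each value deposited by the authors is a signal, namely reads of a gene over a size factor. This was read from the values: in every column 100% of them were whole multiples of 1 read (tolerance 0.001 of a read), so whole reads were recovered. Of 50686 genes, 50462 (99.6%) matched GENCODE M21 by identifier, and coordinates are from that annotation (GRCm38, the assembly of mm10).

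With limma 3.58.1 (eBayes with trend, two-sided, R 4.3.3), log2 of the normalized count plus 1 was fitted for all 15 libraries in 5 groups. This scale understates the fold of low genes. The contrasts were the mean of both sedentary high-fat arms minus control, each arm minus control, and the maternal minus the paternal arm, and genes were called at 0.05 after Benjamini-Hochberg adjustment over 13499 genes. Another 37187 genes with a mean under 10 were not tested: among interferon genes Mx2 (8.2) and Ifi44 (8.6) lay just outside and H2-DMb1 (12.3) and Cxcl9 (14.2) just inside. Alternatives on recovered reads were DESeq2 1.42.0 (Wald), limma voom and the quasi-likelihood test of edgeR 4.0.16. Other alternatives were TMM scaling, other pseudocounts and filters, the 9 libraries alone, 1 group without an arm term, a hepatocyte score as a covariate, and fits without sets of libraries or each replicate. A block on the title code was added after seeing the data. On simulated counts of 13499 genes for the pooled contrast, the test found 57% of 100 genes with a true 2-fold change and 93% of 100 with a 4-fold one, and called 8 unchanged genes.

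The members, the 42 gene lists, the tests and the alternatives were chosen with earlier results of these data known, so lists are described by counts and medians and carry no test. Of 963 listed symbols 2 matched no gene. By rule the text names 12 genes per direction with a group mean of at least 50, one sign in both arms and no overlap, in order of p, up to 4 members of each list in that order, and Ppargc1a, Slc2a4, Cs, Pdk4, Myh7, Irs1, Bst2 and Dnmt3b. Unnamed gene models were passed over. Other members of the lists and of the 72 genes with an unadjusted p under 0.05 in each arm, among them Stra6, were named after their values were seen. Counts of any pair within a group differed beyond sampling (chi-square/df 24.3 to 88.1), and each library is 1 replicate. Replicate numbers are in accession order and pair nothing. Figures used Python 3.11.15 with matplotlib 3.10.9.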

Additional observations from a re-analysis of the deposited data

Results flagged for a closer look

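Among the 98 named genes, 13 had 1 of the 6 sedentary high-fat-parent libraries far from the other 5 (the gap to its neighbour over the whole range was above Dixon's 95% critical value), and chance flags about 1 in 20 groups. Maternal replicate 1 was the highest for Cd274 at 241.3 normalized counts, for Gbp4 at 635.3, for Gbp2 at 240.3, for Ifi47 at 42.9 and for Tgtp2 at 71.7, all interferon genes. The same library was highest for Plin5 (lipid droplets) at 2612.1 and Ankrd2 (a stretch-responsive muscle protein) at 8195.9. Maternal replicate 2 was highest for the macrophage gene Mpeg1 at 79.1 and for the cathepsin gene Ctss at 82.6. Maternal replicate 3 was lowest for Ifit3b at 35.7 and Insig1 at 140.5. Paternal replicate 1 was highest for Kcnma1 at 1177.1, and paternal replicate 2 for the chloride channel gene Clcn1 at 4068.7.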

How the results depend on the processing

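The pooled comparison called 0 genes in limma and under 20 of 22 alternatives. DESeq2 called 6, and leaving out single libraries gave 0 to 1, the 1 being Cd274 (limma adjusted p = 0.0418) without maternal replicate 3. Counts for both arms and for the arm difference were 0 throughout. The 422 genes at an unadjusted p under 0.05 became 1025 without control replicate 3, 658 without paternal replicate 3, 734 with a mean of at least 1, 265 with a mean of at least 50, 210 without the 4 libraries rich in hepatocyte transcripts and 281 without the 2 libraries of few genes. The 72 genes at that p in each arm became 321 without control replicate 3, 117 without control replicate 1, 131 with a mean of at least 1 and 31 without the 4 libraries. Of 98 named genes 92 never turned. Ppargc1a turned to -0.052 with the hepatocyte score and spanned -0.118 to 0.393 without single libraries (lowest without control replicate 3), Slc2a4 to 0.003, Cs to 0.003 and Pdk4 to -0.089 without the 4 libraries; Myh7 spanned -0.109 (without control replicate 1) to 0.946, and H2-DMa to 0.003 without the 2 libraries. The cause was not tested. Of 20 list medians 15 never turned sign, the interferon lists together staying between 0.23 and 0.37. No paired analysis was possible because the labels carry no replicate numbers. A fit blocked on the leading title code was added after seeing the data. It could be made for the paternal arm alone (3 residual degrees of freedom), by way of the open-wheel paternal libraries, and passed 0 genes. With 3 libraries a group, counts limit low genes such as Tgtp1.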

Other observations

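Over all genes tested, 47.5% had lower pooled means and 26.8% lower means in both arms. Cytoplasmic ribosomal protein genes had lower pooled means in 67 of 76 tested, 36 of them in both arms and 1 higher in both. Their median was -0.08 against 0.01 over all genes, and 0 reached an unadjusted limma p under 0.05. Without the 4 libraries rich in hepatocyte transcripts 40 were lower and 36 higher (median -0.008), and without control replicate 2 the split was 44 and 32 (-0.024). Fast fibre genes were lower in 14 of 17 (median -0.11, 0.03 in the maternal and -0.20 in the paternal arm), but without control replicate 1 they were higher in 10 and lower in 7 (median 0.02). The median of glycolysis and glycogen genes was likewise -0.02 and -0.21, with 20 of 30 lower when pooled. Smooth muscle and pericyte genes were lower in 12 of 13, 10 in both arms (median -0.14). Their summed CPM was 6102, 6803 and 5993 in the controls and 5479 to 6782 in the 6 high-fat-parent libraries. Only control replicate 2 lay above that range, as for Myh11 (57.1, 105 and 59.4 CPM against 47.0 to 88.1). Des alone made up 5389, 5991 and 5218 CPM of the control sums and 4633 to 6129 of the others. The sums thus describe mainly that gene. The 9 mitochondrial genome transcripts tested stood at -0.13 in the maternal and 0.35 in the paternal arm, and 0 of them shared a direction. None of the genes of these lists passed after adjustment, and all these values share the 3 controls.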
